A study of Mus musculus with 19 samples.

Results

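The CpG sites described here lie within 2 kb, inside or outside, of the start or the finish of a protein-coding gene. They were taken from 3 tables deposited by the authors, each of which lists CpG sites whose methylation differed between 2 groups of mouse livers. United on chromosome, position and strand, the tables hold 8525 sites, of which 1944 (22.8%) met this rule and are called end sites. A further 4336 sites lay inside a coding gene but farther than 2 kb from every end, and 2245 lay over 2 kb from every coding gene. Of the end sites, 1497 (77.0%) lay inside a coding gene and 447 outside.

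The groups were 8 untreated wild-type (WT) mice, 6 MAT1A KO mice on placebo and 5 MAT1A KO mice dosed with SAMe (S-adenosylmethionine), all aged 10 months. Placebo or SAMe was given for 8 weeks, per the series title. Liver DNA was cut with MspI and TaqαI and read by reduced-representation bisulfite sequencing. No WT mice received placebo or SAMe, so genotype and the dosing procedure cannot be told apart in the WT comparisons. The labels do not say how or in which cells the gene was deleted. Methylation in bulk liver averages over its cell types, and with no expression measured the tissue label could not be checked against marker genes.

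Mat1a encodes the methionine adenosyltransferase of adult liver, which makes SAMe, the donor of the methyl group in DNA methylation. Many promoters lie in CpG islands, which are usually unmethylated in normal tissue, whereas gene bodies and the sequence between genes are usually methylated. Methylation at a gene start is often associated with silencing, while methylation around the transcribed end has no such simple reading. MspI cuts at CCGG and TaqαI at TCGA, so the method samples CpG sites near those letters.

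Each line of the authors' deposited tables gives a difference in methylation in percentage points with a p-value and a q-value, for listed sites only. Levels, coverage and values per animal were not analysed here, so depth is not known, and neither an SD nor a test over animals can be given. Every listed difference exceeded 20 points, and the largest q was 0.0495. A table that lacks a site does not say whether the site was not covered or missed the threshold on the difference or on q. The tables do not state the order of subtraction. Differences are read as KO minus WT and as SAMe minus placebo, and all directions would turn together under the opposite order. Both WT comparisons share the 8 WT animals, so they are given side by side and are not independent of each other.

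The RefSeq promoter table (build GRCm38.p6, the coordinates of mm10) gave a strand for 17491 of the 21896 coding genes (79.9%). For these genes the ends could be split into start and finish. Of the 1944 end sites, 875 lay near a start and 822 near a finish, 186 of them near both, because of short genes or close neighbours. Ends of genes with no strand at hand accounted for 518 sites. A single gene claimed 1555 of the end sites, 374 sites belonged to 2 genes and 13 to 3. The remaining 2 sites at the shared end of the gamma protocadherin cluster counted for 25 genes each. Starts of oppositely oriented neighbours shared 69 sites, and finishes of oppositely oriented neighbours shared 99.

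Sequence around end sites could be read where they fell in a RefSeq promoter window of 300 bases, from base −250 to base 50 around an annotated start. Such windows held 58 listed sites of 42 genes. All 58 had a CG at the listed base and strand, which checks the coordinates of the tables against the build. Of these sites 42 were end sites. The other 16 belong to alternative starts over 2 kb from every outermost end and fall outside the rule. The 8 of these 42 with the largest absolute difference, 1 for each gene, are shown on the strand of the gene with each listed CpG in capitals. For sites past a start or inside another transcript only the nearest bases are given. Windows exist for every annotated start, so those of Vwa7, B3gnt8, Akap5 and Arhgef10l belong to a start inside the outermost one. The sequences show how different the settings of the differing CpG sites were, from isolated CpG sites to CpG-dense sequence.
Klhl33, chr14:50897434-50897459, minus strand: ggcaagcagaagccCGgtgtctcctg
Vwa7, chr17:35016567-35016596, plus strand: ccctgggccCGcccCGgctttcgctacatc
B3gnt8, chr7:25627656-25627673, plus strand: gcgaggagggagtcCGgg
Fut1, chr7:45617356-45617435, plus strand: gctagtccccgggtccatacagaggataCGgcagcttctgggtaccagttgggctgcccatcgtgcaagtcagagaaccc
Bmp4, chr14:46390690-46390791, minus strand: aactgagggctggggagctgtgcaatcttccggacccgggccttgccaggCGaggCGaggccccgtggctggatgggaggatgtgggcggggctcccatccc
4933428G20Rik, chr11:97500291-97500314, minus strand: tcggctgcggggccCGgcagctgc
Akap5, chr12:76324925-76324940, plus strand: cCGttgtttgggccCG
Arhgef10l, chr4:140665990-140666019, minus strand: gtcctccagtcttcCGccttcaccctctgc

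The whole 300-base window around the Klhl33 start held 5 CpG sites, against 42 for the window of 4933428G20Rik. Between these lay Arhgef10l with 7, Bmp4 and Vwa7 with 12 each, Fut1 with 15, B3gnt8 with 23 and Akap5 with 27. In Klhl33, B3gnt8, Vwa7 and 4933428G20Rik the listed CpG with the largest difference inside the window was itself the CpG of a CCGG, the MspI site. Klhl33 and 4933428G20Rik had listed sites with larger differences farther inside the gene, beyond the window. Bmp4, a secreted growth factor of the bone morphogenetic protein family, had its listed CpG sites 72 and 67 bases upstream of the start. At position −72 the authors' deposited tables gave −39.1 points for placebo-treated and −36.2 for SAMe-treated KO liver, and at −67 they gave −24.3 and −26.1. Both CpG sites were therefore lower in both KO groups. The Fut1 site lies 222 bases upstream of the start of that fucosyltransferase gene and 1894 bases upstream of the start of Fgf21, a fasting hormone of the liver. It stood at −37.6 with placebo and −39.1 with SAMe in the authors' deposited tables.

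None of the 58 sites in promoter windows was higher in a KO group, and none was listed between the KO groups. Over all positions, 43 of 6721 sites were higher with placebo and 53 of 5383 with SAMe. Between the KO groups, 230 of the 8525 sites were listed, so absence among 58 sites says little. Higher sites of Gcsh, 59 to 187 bases inside its start, lay just outside the windows. The 42 end sites among the 58 had medians of −25.0 points for placebo (36 sites, from −49.9 to −20.1) and −26.1 for SAMe (25 sites, from −56.3 to −20.2) in the authors' deposited tables. Upstream of the annotated start lay 29 of the 42, and 13 lay from the start on. The windows that held a listed site had a median of 10 CpG sites (quartiles 7 and 15), against 13 (quartiles 4 and 24) over all 21262 windows of coding genes. At least 20 CpG sites were present in 15.9% of the former and 35.9% of the latter. CCGG, read on either strand as it is its own reverse complement, was present in 93.2% of the windows with a listed site and 62.2% of all windows, and TCGA, likewise its own reverse complement and never overlapping CCGG, in 34.1% and 23.9%. Either was present in every window with a listed site and in 68.6% of all windows. Among 57 listed CpG sites whose flanking bases could be read, 31.6% were the CpG of a CCGG, against 11.2% of all CpG sites in these windows. The enzymes of the assay cut at these letters, and coverage of the unlisted CpG sites was not analysed here, so their part in these shares was not tested.

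Genes with a listed site anywhere within 2 kb of the start had promoter windows that were not poor in CpG. Their outermost window held a median of 17.5 CpG sites over 550 genes. The median over 529 genes with a site near the finish was 18, and 13 over all 17491 genes. Of these sets of windows, the 44 that themselves contained a listed site had the lowest median.

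Around gene starts, listed sites were spread unevenly (plot of listed sites by distance). Per 1000 genes, the steps of 200 bases upstream held from 1.37 to 2.57 sites, with the lowest number between 400 and 200 bases before the start and 1.54 in the last 200 bases. Inside the gene the number rose to 4.41 in the first 200 bases and stayed between 2.54 and 4.57 out to 2 kb. Of the 77 sites in those first 200 bases, 13 lay in Gcsh and 8 in 4933428G20Rik, so single genes weigh on this step. In all, 604 sites lay inside and 324 outside a gene near its start. Around finishes the steps inside the gene held up to 4.83 sites per 1000 genes, at 1000 to 800 bases before the finish, and 1.83 in the last 200 bases. Beyond the finish they held from 1.43 to 3.03. Near the finish 566 sites lay inside and 355 outside. These counts depend on which CpG sites were covered as well as on which differed, and that part was not tested.

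**Figure D1:**
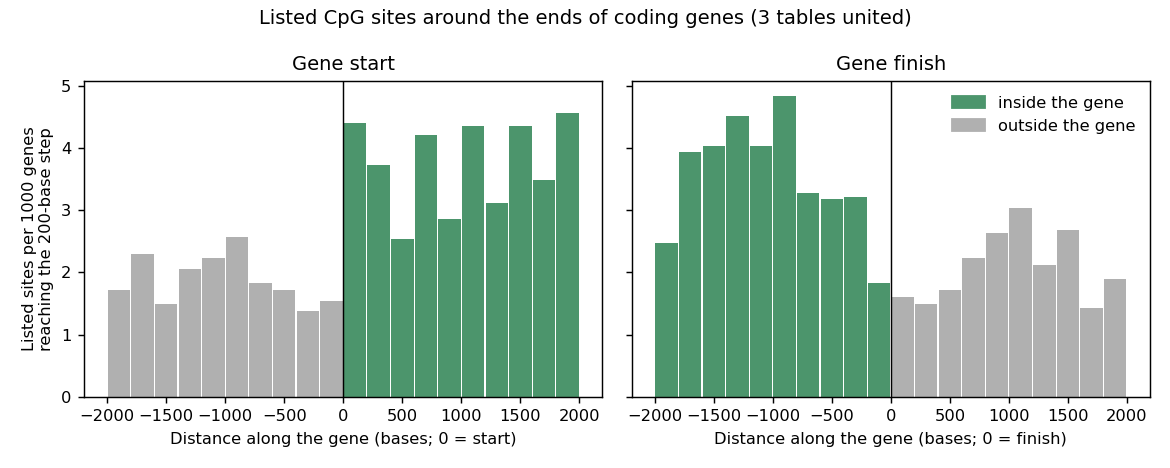
Number of listed CpG sites per 1000 genes (y axis) in 200-base steps of distance (x axis, bases) from the start (left) and the finish (right) of coding genes with known strand, the 3 tables united; green bars are inside the gene, counted over genes long enough to reach the step, and grey bars outside. The inside step next to the start reaches 4.41, against 1.54 in the 200 bases before it, and the last 200 bases of genes hold 1.83. Gcsh gives 13 and 4933428G20Rik 8 of the 77 sites in the step next to the start.

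In placebo-treated KO liver, methylation was lower than in WT at 1557 of 1562 end sites and higher at 5. The whole table had the same direction, with 6678 of 6721 sites lower (99.4%, against 99.7% of end sites). The median over all end sites of this comparison was −26.7 points in the authors' deposited table. End sites made up 23.2% of that table and touched 1093 coding genes (4.99% of 21896). A site near the start was listed for 455 genes (2.6% of those with a strand) and near the finish for 438 (2.5%), and 69 genes had both. At starts the median was −26.6 over 694 sites, at finishes −26.4 over 677, and at ends without strand −27.2 over 416. The interior of genes had a median of −26.4 over 3442 sites and sites far from coding genes −24.5 over 1717. A difference of at least 40 points was reached at 9.22% of start sites, 11.2% of finish sites, 10.2% of interior sites and 6.06% of far sites in the authors' deposited table. Starts and finishes thus differed by under 1 point in their medians, and no test of these differences between positions was made, because sites of 1 locus are not independent.

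In SAMe-treated KO liver, 1294 of 1321 end sites were lower than in WT and 27 higher, with a median of −26.7 in the authors' deposited table. Lower sites were 98.0% of end sites and 99.0% of that whole table (5330 of 5383). End sites were 24.5% of that table and touched 921 coding genes (4.21%), with a start site in 369 (2.11%) and a finish site in 365 (2.09%), and both in 52. Medians were −26.8 at starts (582 sites), −26.7 at finishes (546), −27.3 in gene interiors (2803) and −25.3 far from genes (1259) in the authors' deposited table. Of the 1944 end sites, 955 were listed in both WT tables alone, 601 for placebo alone and 363 for SAMe alone. Another 18 were listed only between the KO groups, and 7 between the KO groups and in at least 1 WT table.

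**Figure D2:**
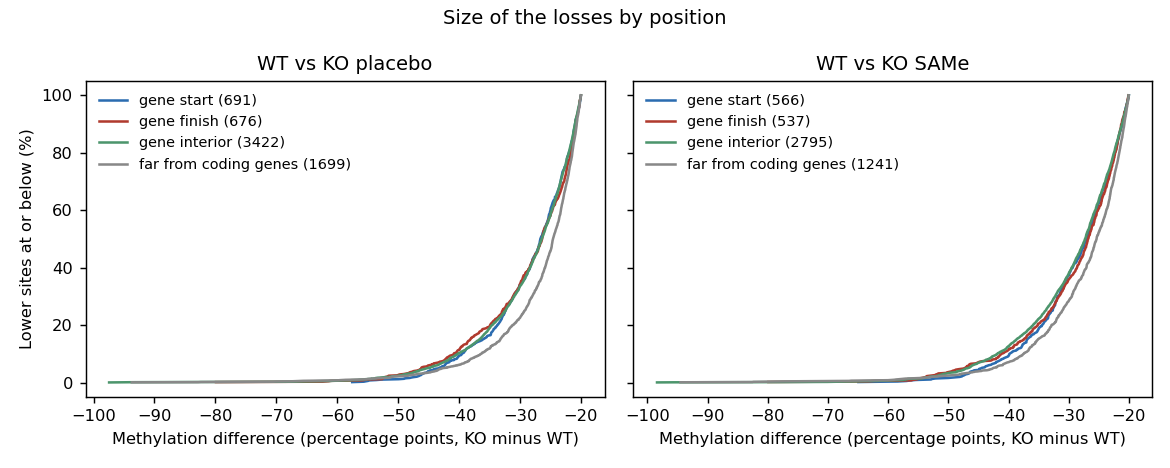
Share of the lower sites (y axis, percent) at or below each methylation difference (x axis, percentage points, KO minus WT) for WT vs KO placebo (left) and WT vs KO SAMe (right); lines are sites near a start, near a finish, in gene interiors and far from coding genes, with their numbers in brackets, and a site near both a start and a finish counts in both lines. The curves of starts, finishes and interiors lie close together, and the curve of far sites is shifted toward smaller losses, with medians of −24.5 and −25.3 over all far sites.

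At the edge of the rule, the 93 sites whose nearest end was between 1901 and 2000 bases away had a median of −31.2 with placebo and −30.2 with SAMe. The 73 sites between 2001 and 2100 bases away had −27.8 and −30.6 in the authors' deposited tables. No higher site was among them.

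Upstream of starts the size of the losses was set against distance, with no test. Within 500 bases upstream the median was −25.0 with placebo, and 1 of 57 sites (1.75%) reached 40 points. Between 1501 and 2000 bases it was −30.1, with 11 of 72 sites (15.3%) at 40 or more. With SAMe the same bands had −26.1 with 1 of 38 and −31.2 with 7 of 64 in the authors' deposited tables. From 501 to 1000 bases the medians were −26.9 with placebo (4 of 63 at 40 or more) and −24.3 with SAMe (1 of 57). From 1001 to 1500 bases they were −27.6 (2 of 67) and −27.5 (8 of 57). The share at 40 points or more thus did not rise step by step with distance in either comparison. Several loci give many sites to these bands. Hs3st3b1, for example, gave 5 of the sites in the farthest band, at −40.8, −41.6, −35.6, −40.4 and −45.3 with placebo. Inside genes the shares at 40 points or more were 14.3% in the first 500 bases and 11.8% between 1501 and 2000 bases with placebo, and 9.24% and 15.6% with SAMe, so the order of these bands differed between the comparisons.

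The largest losses near starts were spread over several chromosomes. Tmem200b, a membrane protein gene, had −57.5 points at 237 bases inside its start (chromosome 4, position 131920208) with placebo and no listed value with SAMe. The exchange factor gene Arhgef40 stood at −55.6 with placebo and −55.4 with SAMe, 1930 bases inside its start (chromosome 14, position 51986358). Klhl33, of the kelch-like family, had 3 sites at 38, 68 and 79 bases inside its start, at −49.9, −52.8 and −55.3 with placebo and −56.3, −57.0 and −64.9 with SAMe in the authors' deposited tables. Every listed site of the Klhl33 start was lower, and each was farther from WT with SAMe than with placebo, by a gap that was not listed as a difference between the KO groups. Next came a site 458 bases upstream of the predicted gene Gm10840 and 1799 bases inside Limd2, a LIM domain gene, at −54.8 and −58.4 in the authors' deposited tables. Krt18, a keratin of simple epithelia that hepatocytes and bile duct cells both express, had 5 lower sites from 1295 to 1341 bases inside its start with placebo, the largest at −49.0, and 4 with SAMe, the largest at −48.1 in the authors' deposited tables. Tmem120a (−48.9 and −46.4), 2310011J03Rik (−48.1 and −41.9), Dnph1 (−47.5 and −52.9), Mea1 (−46.7 and −50.0) and Vwa7 (−44.8 and −52.7) gave values of similar size for placebo and SAMe in the authors' deposited tables. For Tomm6, a small subunit of the mitochondrial import channel, a site 1485 bases upstream was listed with SAMe only, at −52.1 in the authors' deposited table, and lies at the finish of its neighbour Prickle4 as well.

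Near finishes the single largest loss lay beyond Dad1, a subunit of the enzyme that attaches sugar chains to proteins. The site is 899 bases past the finish on chromosome 14 (position 54234586). It stood at −79.9 points in both WT comparisons of the authors' deposited tables, the only end site with identical values in both. Chromosome 14 also carries Mat1a, and it holds 85 of the end sites (4.37%). Fbrsl1, related to the neurodevelopmental gene Auts2, followed with −62.4 and −55.9 at 1989 bases before its finish and −61.4 and −63.4 at 1899 bases before it. A site 1071 bases before the finish of Tmem200b, also 528 bases past the finish of Epb41, which encodes a protein of the membrane skeleton, had −55.5 with placebo and −45.2 with SAMe in the authors' deposited tables. Tmem200b was thus lower near both ends. Mief2, a regulator of mitochondrial fission (−52.5 and −47.6), Pigl, an enzyme of GPI anchor synthesis (−52.4 and −48.2), and the predicted gene Gm45915 (−55.3 and −53.6) were listed in both WT tables of the authors. Past the finish of Cxcl1, a chemokine that attracts neutrophils, 3 sites between 1281 and 1298 bases had −46.1, −52.1 and −49.1 with placebo and no listed value with SAMe in the authors' deposited tables. Dok3, an adaptor protein of immune cells, had a site only 2 bases past its finish, at −44.5 with placebo and −56.1 with SAMe in the authors' deposited tables. The orphan receptor gene Gpr137 (−47.4 and −55.0) and the nuclear pore gene Nup210 (−49.8 and −53.9) had sites inside the gene near the finish in the authors' deposited tables.

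**Figure D3:**
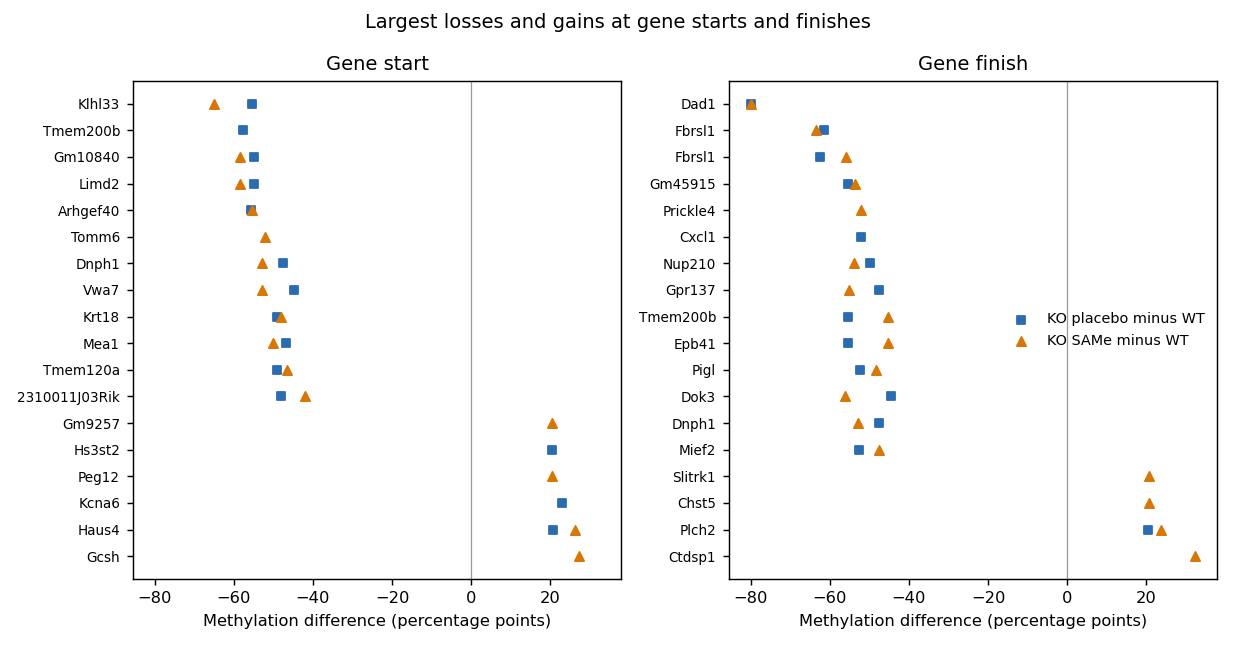
Methylation difference (x axis, percentage points) at the sites with the largest losses and gains near gene starts (left) and finishes (right), 1 row per gene and site; squares are KO placebo minus WT and triangles KO SAMe minus WT, as in the authors' deposited tables, and a missing mark means that the site is not listed there. Dad1 is farthest from 0 at −79.9, and gains stay below 33 points.

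Gains were few. With placebo 5 genes had a higher end site (0.0228% of coding genes) and with SAMe 13 (0.0594%), among 29 sites of 15 genes in all. Only 1 of the 29, beyond the end of Stk19, lay outside a coding gene. The 13 higher sites of Gcsh, a gene of mitochondrial glycine cleavage, lay 59 to 187 bases inside its start on chromosome 8. They ranged from 20.8 to 27.1 with SAMe in the authors' deposited table, and none was listed with placebo or between the KO groups. Gcsh therefore accounted for 13 of the 27 higher sites with SAMe, and 12 genes for the other 14. Ctdsp1, a phosphatase gene, had 3 of them, at 32.3, 25.4 and 27.6 in the authors' deposited table, 1709 to 1742 bases before its finish. Sites listed as higher in both KO groups were those of Guca1b, an activator of retinal guanylate cyclase (23.6 and 34.3), Haus4, of the augmin complex of the spindle (20.8 and 26.3), and Plch2, a phospholipase C (20.5 and 23.7), in the authors' deposited tables. The potassium channel gene Kcna6 (22.9) and Hs3st2, a heparan sulfate sulfotransferase gene (20.3), were higher with placebo only in the authors' deposited table. Peg12, an imprinted gene expressed from the paternal copy (20.5), Slitrk1 (20.5), Chst5 (20.6) and the predicted gene Gm9257 (20.3) were listed with SAMe only.

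Most gene ends carried a single listed site, 364 of 550 starts (66.2%) and 346 of 529 finishes (65.4%). At least 5 sites were found at 22 starts and 27 finishes. Chromosome 14 held the most filled start, that of the fucosyltransferase gene Fut11, with 15 sites between 216 and 929 bases inside. The same 15 sites lie past the finish of Sec24c, a subunit of the COPII transport coat. They averaged −25.2 over 14 sites with placebo (from −30.0 to −20.9) and −25.6 over 11 sites with SAMe (from −33.5 to −20.2) in the authors' deposited tables. All were lower, within a narrow range.

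Cercam, a cell adhesion gene, and the finish of Urm1, a ubiquitin-like modifier gene, shared 10 sites. Of the placebo values, 8 formed 1 run at 643 to 766 bases inside Cercam with a mean of −38.4, for which the SAMe table listed nothing. The SAMe table listed 1 site, at 928 bases, with −31.9 against −41.6 for placebo in the authors' deposited tables. Tmem200b had a similar run. There, 5 sites from 233 to 282 bases inside its start averaged −48.9 with placebo and had no SAMe value, whereas 2 sites at 144 and 128 bases upstream stood at −31.2 and −39.6 with placebo and −33.2 and −37.4 with SAMe. The finish of Gal3st1, which makes sulfatide, had 6 sites with a mean of −33.8 between 717 and 679 bases before it that were listed with placebo alone, beside 6 sites of which 4 were listed with both. Itpripl2 had 5 such sites at its start, with a mean of −28.1, next to 4 listed in both tables. At the Fbrsl1 finish the 5 sites between 1439 and 1397 bases were listed with placebo alone (mean −41.6), while the 5 farther in (means −58.5 and −56.9) and 6 of 7 nearer the finish were listed in both of the authors' deposited tables. In each of these genes the sites without a SAMe value included a run of at least 5 neighbouring listed CpG sites. At sites with a placebo loss over 40 points, a SAMe loss under 20 points would leave over 20 points between the KO groups, because the differences add up. None of the sites listed with placebo alone in Tmem200b, Cercam, Fbrsl1 and Cxcl1 was listed between the KO groups, where a site must also be covered and pass the q threshold. At those of these sites with a placebo loss over 40 points, coverage and a missed q threshold cannot be told apart. At those with a smaller placebo loss, a SAMe loss under 20 points could also have gone unlisted.

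All 10 sites of the Hs3st3b1 start, a heparan sulfate sulfotransferase gene, lay upstream in 2 groups. Those 1962 to 1916 bases before the start averaged −40.7 with placebo and −39.2 with SAMe, and those 1266 to 1107 bases before it −32.2 and −30.6 in the authors' deposited tables. Smarcd3, a subunit of the BAF chromatin remodelling complex, had 10 sites past its finish, averaging −28.6 with placebo and, over 9 sites, −32.0 with SAMe. Cyp26c1, an enzyme that degrades retinoic acid, had 14 sites across its finish, from 340 bases inside to 72 bases beyond. Their mean was −27.2 over 11 sites with placebo and −29.0 over 12 with SAMe in the authors' deposited tables. Losses therefore lay on both sides of the Cyp26c1 finish. The kinase gene Rps6ka4 had 10 finish sites, 9 listed with placebo (mean −27.3) and 3 with SAMe (mean −28.5). At the start of the corepressor gene Gse1, 10 sites averaged −35.3 over 6 with placebo and −31.9 over 9 with SAMe in the authors' deposited tables. Among ends without strand, chosen after their values were seen, Prob1 had 22 sites (means −45.2 and −44.2), Mn1 had 17 (−33.4 and −34.0) and Mapk15 had 16 (−28.5 and −24.9). These counts unite the tables, and each mean covers only the sites listed in its own comparison. In Mapk15 a run from position 75998905 to 75998933, from −37.4 to −22.3, was listed with placebo alone. Its positions 75997847 (−20.5) and 75998148 (−24.5) were listed with SAMe alone, so the Mapk15 means are not over the same sites.

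**Figure D4:**
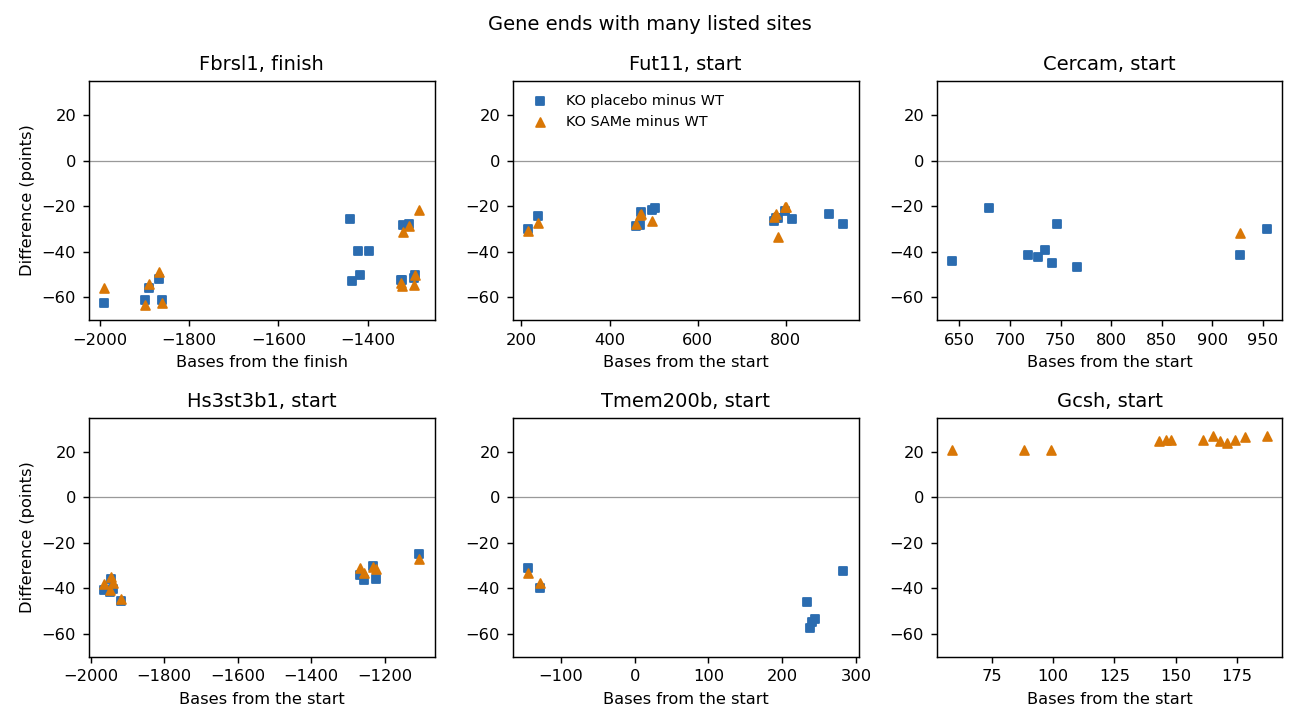
Methylation difference (y axis, percentage points) of each listed site against its distance in bases (x axis) from the start or finish of 6 genes with many listed end sites; squares are KO placebo minus WT and triangles KO SAMe minus WT. The genes other than Gcsh lie below 0 throughout, Gcsh lies between 20.8 and 27.1 with SAMe values only, and the stretches of Cercam, Tmem200b and Fbrsl1 without triangles are not listed with SAMe.

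Of the genes with known strand, 93 had listed sites at both start and finish in the united tables, 16.9% of those with a start site and 17.6% of those with a finish site. Among all 17491 genes with a strand, 550 had a start site and 529 a finish site. Part of this comes from short genes, whose windows overlap. The predicted gene Gm48552, 1239 bases long, had the same 8 sites at both ends (means −32.3 and −30.1), and Bloc1s3, 2598 bases long, the same 6. In longer genes the ends were separate. Rap1gap, which switches off the GTPase Rap1, had 5 sites near its finish and 1 upstream of its start, and Def6 had 3 near the start and 2 near the finish, all lower. Both strands of 1 CpG were listed at 8 places, 5 of them with placebo values for both strands. In the authors' deposited table the plus and minus strand values were −31.3 and −46.2 in Gm48552, −28.5 and −22.8 in Gal3st1, and −23.6 and −32.0 in Mn1. In Prob1 1 pair had −42.8 and −57.9 and another −50.8 and −51.3. All were lower on both strands, and the size differed between strands by amounts from under 1 point upward.

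Between the KO groups 25 end sites were listed, 16 higher and 9 lower with SAMe, with none at 40 points or more (plot of sites that differed between the KO groups). They touched 26 genes (0.119%), 16 with a higher site (0.0731%) and 10 with a lower one (0.0457%). Over all positions, 161 of 230 sites in that table were higher with SAMe and 69 lower, so most sites were higher there as well. Near starts, 8 of 9 sites in 9 genes (0.0515%) were higher with SAMe, and near finishes 7 of 11 sites in 11 genes (0.0629%) were lower. The sites of Irf2bp1 and Zbtb12, both higher, count in each because those genes are short. End sites made up 10.9% of this table, against 23.2% and 24.5% of the WT tables. No test of these shares was made, and 25 sites are few.

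Among start sites higher with SAMe, Gmnc, a coiled-coil protein gene of multiciliated cells, had 25.6 points (q = 7.15e-06) and Fam83g 25.1 (q = 0.00925) in the authors' deposited table. The site of Irf2bp1, a corepressor, lies within 2 kb of both of its ends and had 23.4. Zbtb12, a zinc finger gene, had 23.5. Mip, the aquaporin of the lens, had 23.3, and Ryk, a Wnt receptor, 21.3. The start of the synaptic adaptor gene Dok7 (21.3) was listed with q = 0.0495, the largest in the tables. Lower sites lay near the finishes of Sdc4, a heparan sulfate proteoglycan of the cell surface (−22.1), Sirt7, a nuclear deacylase (−21.9), Begain (−21.5), Mon1a (−21.4), Fscn2 (−20.8) and Ctxn2 (−20.4) in the authors' deposited table. The only start site lower with SAMe was that of Hs3st2 (−20.6). Irf2bp1, Mip, Ryk, Dok7, Hs3st2, Mon1a, Fscn2 and Ctxn2 were chosen after their values were seen.

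For 7 of the 25 sites a difference from WT was listed too, and the remaining WT difference follows by addition, since the 3 deposited differences add up, within 1e-08 points, at all 26 sites listed in every table. Enpp5, at an end without strand, stood at −72.1 with placebo and −45.8 with SAMe. Ryk went from −35.9 with placebo to −14.7 with SAMe, Irf2bp1 from −28.3 to −4.93, Mip from −22.0 to 1.31 and Hs3st2 from 20.3 to −0.293. Tm2d3 moved the other way, from −37.5 with placebo to −61.3 with SAMe, and the Stk19 site from 2.12 to 25.4. The placebo or SAMe animals enter 2 of the 3 values at each site, so these values are not independent of each other. The remaining 18 sites were listed only between the KO groups.

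**Figure D5:**
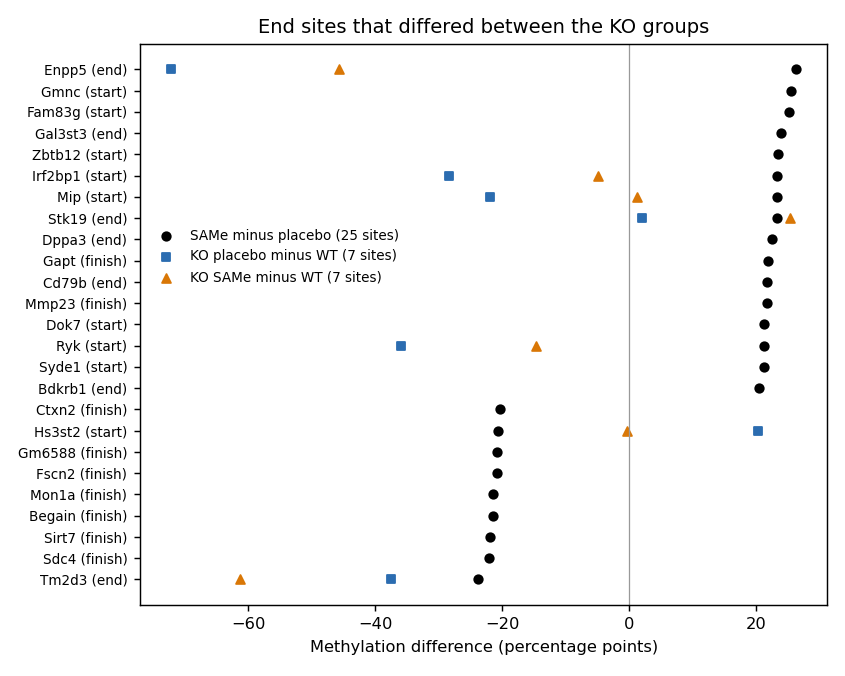
Methylation difference (x axis, percentage points) at the 25 end sites listed between the KO groups, 1 row per site with the gene and kind of end ("end" where strand is unknown); dots are SAMe minus placebo, squares KO placebo minus WT and triangles KO SAMe minus WT, the last 2 for the 7 sites where they are listed or follow by addition. Dots lie between −23.7 and 26.4, and Enpp5 and Tm2d3 stay far below WT in both groups.

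Genes of 14 lists were looked up by role. Over 309 genes, 27 (8.74%) had an end site with placebo and 24 (7.77%) with SAMe, against 4.99% and 4.21% of all coding genes, and 1 between the KO groups. The lists and their members were chosen with earlier results of these data known, so no excess can be read from these shares. The largest difference was a loss in all 27 with placebo and in all with SAMe but Gcsh. Values below are the largest of each gene in each comparison, not always at the same site. Of 27 genes of the methionine cycle and one-carbon metabolism, 2 had an end site with placebo and 3 with SAMe. They were Gnmt, the glycine N-methyltransferase that uses up SAMe (−26.6 with placebo 1031 bases upstream, −35.8 with SAMe 1431 bases upstream), Chdh, which turns choline toward betaine (−20.6 and −27.0, past its finish), and the Gcsh gains, in the authors' deposited tables. Insulin and energy signalling had 3 of 25 with placebo, Fgf21 (−37.6), the insulin receptor substrates Irs2 (−24.1) and Irs1 (−21.0), and 2 with SAMe, Fgf21 (−39.1) and the growth inhibitor Tsc2 (−23.6), in the authors' deposited tables.

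Hepatocyte identity genes had 3 of 21 in both comparisons. Among them were the transcription factor gene Foxa1 (−22.3 and −25.1, at 425 bases upstream) and the protease inhibitor gene Serpina1a (−23.5 and −28.9) in the authors' deposited tables. Nuclear receptors and drug metabolism had 0 of 23 in every comparison, and lipid and sterol metabolism 1 of 29 with placebo, Cpt1a of mitochondrial fatty acid uptake (−20.9), and 0 with SAMe. Imprinted genes had 3 of 30 with placebo and 2 with SAMe; Peg12 was not in that list. Nnat stood at −34.4 and −43.3 at 169 bases inside its start, Blcap at −30.0 and −29.6, and Igf2 at −23.3 with placebo in the authors' deposited tables. Liver cancer and growth control had 4 of 34 with placebo, Socs1 (−27.5), Rassf1 (−26.8), Dusp1 (−22.6) and Nfe2l2 (−22.4), and 3 with SAMe. In the circadian clock list 1 of 18 had a site, Nr1d2, with 2 sites 1334 and 1375 bases upstream of its start at −45.1 and −40.8 with placebo and −49.0 and −47.7 with SAMe in the authors' deposited tables. The DNA methylation machinery had 1 of 17, Mbd1 (−30.6 and −25.4), and housekeeping genes 1 of 26, Rps18 (−26.4 and −26.9, past its finish).

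Markers of other liver cells were looked up in the same way. Cholangiocyte markers had an end site in 4 of 12 genes in both WT comparisons, against 4.99% and 4.21% of all coding genes. These members too were chosen with earlier results known. Krt18, given above, is expressed by hepatocytes as well and so does not mark cholangiocytes alone. Sox9 stood at −27.1 and −31.4, Muc1 at −26.3 and −20.6, and Prom1 at −21.6 and −22.1 in the authors' deposited tables. Stellate cell markers had 2 of 15, Des (−24.6 and −30.6) and Reln (−22.9 and −25.4), endothelial markers 1 of 14, Eng (−38.6 and −36.3), and immune markers 1 of 19, Itgam (−29.2 and −29.6), in the authors' deposited tables. Cd79b, a B cell receptor chain, was the only list member between the KO groups, 21.8 points higher with SAMe. The share of each cell type in these livers was not measured, and its part in the differences was not tested.

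By chromosome, the largest number of end sites was on chromosome 11, 215 (11.1%), touching 132 of its 1609 coding genes (8.20%). The share was 5.94% over all coding genes, and higher than on chromosome 11 on chromosomes 15 (9.15%), 19 (8.79%) and 18 (8.43%). The 43 of 510 genes touched on chromosome 18 include the gamma protocadherin cluster, where 2 sites count for 25 genes each. Its place in this order therefore rests on that shared end. Chromosome X had 17, touching 11 of 966 (1.14%). The medians per chromosome ran from −33.7 on chromosome 18 to −23.5 on chromosome 3 with placebo in the authors' deposited table. Prob1 alone gave 22 of the 45 placebo sites on chromosome 18, so this 1 locus weighs on its median. Losses of 60 points or more occurred at 9 end sites, 3 of them in Fbrsl1, 2 in Prob1 and 1 each in Dad1, Klhl33, Enpp5 and Tm2d3.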

How the data were processed

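Reduced-representation bisulfite sequencing was done on 19 mouse livers. Per the submitters' processing notes, CASAVA 1.8.2, Trim Galore, Bismark and methylKit were used with the build mm10. No order or settings were stated. The authors deposited 3 tables of listed CpG sites, each with a p-value and a q-value and a methylation difference in percentage points. Animal-level values were not analysed here, so depth per sample is unknown and no tests were run. Sites were united on chromosome, position and strand and assigned with pandas 2.3.3 to every coding gene of RefSeq GRCm38.p6 with an end within 2000 bases. Strand came from the RefSeq promoter table. The assignment was tested on 200 simulated positions, and all 169 inside the window were recovered. Named sites were, 1 per gene, the 8 largest losses and 4 largest gains at starts and at finishes in each WT comparison, 5 and 5 between the KO groups, the 8 starts, finishes and two-ended genes with most sites, the 8 largest in promoter windows, and up to 3 members per list, apart from sites marked otherwise. Of 311 list entries 310 matched. Members and lists were chosen with earlier results of these data known. Windows of 500 bases, 1 kb and 5 kb, stricter thresholds and gene subsets were tried as alternatives. The result of 1 list member is not reported here.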

Additional observations from a re-analysis of the deposited data

Results flagged for a closer look

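At 7 end sites the KO difference from WT was not the same with placebo and with SAMe, since the authors also listed them between the KO groups. Placebo subtracted from SAMe, the authors' deposited table gave −23.7 points for Tm2d3, −20.6 for Hs3st2, 21.3 for Ryk, 23.3 for Stk19, 23.3 for Mip, 23.4 for Irf2bp1 and 26.4 for Enpp5. No WT animals received placebo or SAMe, and the same KO animals enter more than 1 table at each site.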

How the results depend on the processing

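Where 3 values stand together they belong to placebo against WT, SAMe against WT, and SAMe against placebo, in that order. A window of 1 kb left 777, 668 and 12 end sites (11.6%, 12.4% and 5.22% of the tables), 348, 294 and 2 start sites, 332, 278 and 5 finish sites, 552, 482 and 13 genes and 464 sites in both WT tables, with a SAMe median of −25.7. The median between the KO groups was 0.079 there, on 12 sites, against 21.3 within 2 kb, so it no longer leaned to higher with SAMe. Every listed difference exceeds 20 points, so 0.079 is a midpoint between lower and higher sites, and no site lies near it. At 500 bases these were 386, 336 and 7 (5.74%, 6.24% and 3.04%), 180, 156 and 1, 128, 114 and 3, 254, 222 and 7 genes and 234 sites in both, and the medians were −26.2, −25.6 and −20.4. The last had turned from 21.3 to lower with SAMe, on 7 sites. At 5 kb they were 2662, 2255 and 61 (39.6%, 41.9% and 26.5%), 1348, 1123 and 28, 1293, 1064 and 31, 2043, 1741 and 74 genes and 1601 sites in both. Requiring at least 25 points left 936, 808 and 3 end sites (25.1% of the placebo table), 415, 361 and 2 start sites, 392, 328 and 0 finish sites, 665, 605 and 3 genes and 571 in both, with medians of −31.4, −31.5 and 25.6. Genes of at least 4 kb alone gave shares of 20.9% and 22.5% and 7 finish sites between the KO groups, where q under 0.01 also left 7. Wider or narrower windows and stricter thresholds change the counts by construction. Of 159 values, 86 stayed within 1.5 times the count or within the 95% interval, including all 19 without chromosome 14 and all 19 without predicted genes. The median of 0.079 is among these 86, because the interval of that median is wide. These intervals, for shares and medians, treat sites as independent, although sites of 1 locus are not, and hold no spread over animals. For the median between the KO groups the interval ran from −20.6 to 23.3 and so says little. No paired analysis was possible because the tables hold no value per animal, and no animal could be left out.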
